A study of Homo sapiens with 4 samples.

Results

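The genes described here sense foreign or misplaced nucleic acid inside the cell, or pass that signal on. They are the 10 gene rows, of 60675 in the deposited table, that carry the names TBK1, IRF3, MAVS, IFIH1, DHX58, TLR3, ADAR, DDX58 (now RIGI), MB21D1 (now CGAS) and TMEM173 (now STING1). They were chosen by name, and each name matched 1 row. RNA was measured in 4 libraries of HT1080, a human fibrosarcoma cell line, with the genotype KDAC8 knockout and no other treatment named. HDAC8 encodes KDAC8, a lysine deacetylase. No parental library was analysed here, so no effect of the knockout is given, and all values are levels in knockout cells. The labels do not say how the knockout was made, whether the cells are 1 clone, or whether the replicates were separate cultures, so the tests measure only the spread between these libraries, which may be technical.

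As background, the helicases RIG-I (RIGI) and MDA5 (IFIH1) bind viral or unedited double-stranded RNA in the cytosol and signal through MAVS on mitochondria, and LGP2 (DHX58) tunes them without signalling domains of its own. Cytosolic DNA is bound by CGAS, whose product cGAMP activates STING1 on the endoplasmic reticulum. TLR3 reads double-stranded RNA in endosomes, so it is no cytosolic sensor in the strict sense. All these routes reach the kinase TBK1, which phosphorylates IRF3, the factor that switches on interferon beta. ADAR edits adenosines in the cell's own double-stranded RNA and thereby keeps it from MDA5.

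Several of the sensors are known as interferon-inducible genes, so the promoter windows of those with an entry were searched for the core of the interferon-stimulated response element. RefSeq (GRCh38.p14) windows of 300 bases, 250 before and 50 after the start, were held for 6 of the 10 genes (TBK1, MAVS, IFIH1, TLR3, ADAR and RIGI). The motif GAAANNGAAA, read on both strands, was in 3.57% of 35116 windows of that length. It was found in those of IFIH1 and TLR3. No match was found in those of TBK1, MAVS, RIGI or the 3 starts of ADAR, which says only that these letters are not in these windows. The windows of IFIH1 (chr2:162318635-162318934, reverse strand) and TLR3 (chr4:186068906-186069205, forward strand) are shown for their matches, in capitals, and that of TBK1 (chr12:64451870-64452169, forward strand) as one without a match, each from 5′ to 3′.
IFIH1: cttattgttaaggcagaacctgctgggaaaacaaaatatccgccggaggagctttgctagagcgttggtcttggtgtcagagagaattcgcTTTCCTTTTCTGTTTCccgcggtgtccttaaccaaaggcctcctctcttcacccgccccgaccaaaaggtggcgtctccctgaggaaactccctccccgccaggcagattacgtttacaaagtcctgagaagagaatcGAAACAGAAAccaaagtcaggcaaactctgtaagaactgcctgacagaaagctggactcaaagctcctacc
TLR3: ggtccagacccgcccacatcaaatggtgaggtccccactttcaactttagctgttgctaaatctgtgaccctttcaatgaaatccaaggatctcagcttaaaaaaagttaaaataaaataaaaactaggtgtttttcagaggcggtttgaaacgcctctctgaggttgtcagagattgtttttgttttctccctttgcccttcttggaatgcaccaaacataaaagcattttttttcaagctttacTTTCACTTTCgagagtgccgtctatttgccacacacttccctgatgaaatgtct
TBK1: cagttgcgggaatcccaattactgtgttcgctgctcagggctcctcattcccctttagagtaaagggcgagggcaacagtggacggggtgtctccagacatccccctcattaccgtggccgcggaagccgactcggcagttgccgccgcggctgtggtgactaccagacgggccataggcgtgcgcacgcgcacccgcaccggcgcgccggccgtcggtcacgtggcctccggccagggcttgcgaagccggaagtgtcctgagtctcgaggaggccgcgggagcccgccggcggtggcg

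The IFIH1 window held 3 matches, which began 159, 153 and 21 bases before the start, and the first and second of them overlap. The TLR3 match began 4 bases before the start and so runs across it. The windows also differed in base composition. G and C made up 68.3% of the TBK1 window and 71.7% of that of MAVS, against 50.7% for IFIH1 and 40.3% for TLR3. RIGI lay between them at 60.3%, and the 3 ADAR windows, without a match, had 47.7%, 49.7% and 53.0%.

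The libraries held 39454167 to 45828772 counts. Levels are given as CPM, counts scaled to a common library size with TMM factors, each with its SD (n = 4) where a mean is printed. HDAC8, the targeted gene, stood at 1.98, 2.11, 2.10 and 2.53 CPM in replicates 1 to 4, and such a gene-level count cannot check for a small deletion. Of 7 mesenchymal markers 6 were detected (1 CPM or more in every library), against 58.7% of protein-coding rows, and THY1 was not. The median of the mesenchymal list was 795 CPM. None of 4 epithelial markers was detected, and 3 of them had 0 counts in all libraries. Of 10 haematopoietic markers 3 were at 1 CPM or more in every library, CD68, HLA-DRA and CSF1R, while the pan-leukocyte gene PTPRC had 2 counts in all libraries together and CD14 and MS4A1 had 0. The summed level of the haematopoietic list was 83.8 to 96.3 CPM per library, nearly all of it from CD68, a lysosomal protein gene at 86.1 ± 5.61 CPM. The libraries also differed in make-up. The RNAs of the signal recognition particle, 7SK, RNase P and RNase MRP held 5.41% of counts in replicate 1, 8.18% in replicate 2, 6.82% in replicate 3 and 6.12% in replicate 4, and mitochondrially encoded genes held 2.85%, 1.99%, 2.58% and 3.28%.

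All 10 sensing genes were detected, that is, at 1 CPM or more in all 4 libraries, against 58.7% of 19693 protein-coding rows. The sensors were the scarcest of them. Per kilobase of exon, RIGI, CGAS, IFIH1, DHX58 and TLR3 lay between 0.189 and 2.10 CPM, while IRF3, TBK1, STING1, MAVS and ADAR lay between 6.38 and 30.4 CPM. The median of the 11566 detected protein-coding genes was 6.32 CPM per kilobase, above all 5 sensors. STING1, TBK1, MAVS and ADAR exceeded it by more than their SD, while IRF3, at 6.38 ± 0.898 CPM per kilobase, lay at it. In bulk RNA a low level in all cells and a higher one in a few cannot be told apart. Of the 10 genes, 7 stood at 1 CPM per kilobase or more in all 4 libraries, against 51.6% of protein-coding rows, and IFIH1, DHX58 and TLR3 did not. The sensors together held 4.05% to 4.54% of the 10 genes' summed CPM in the 4 libraries.

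**Figure D1:**
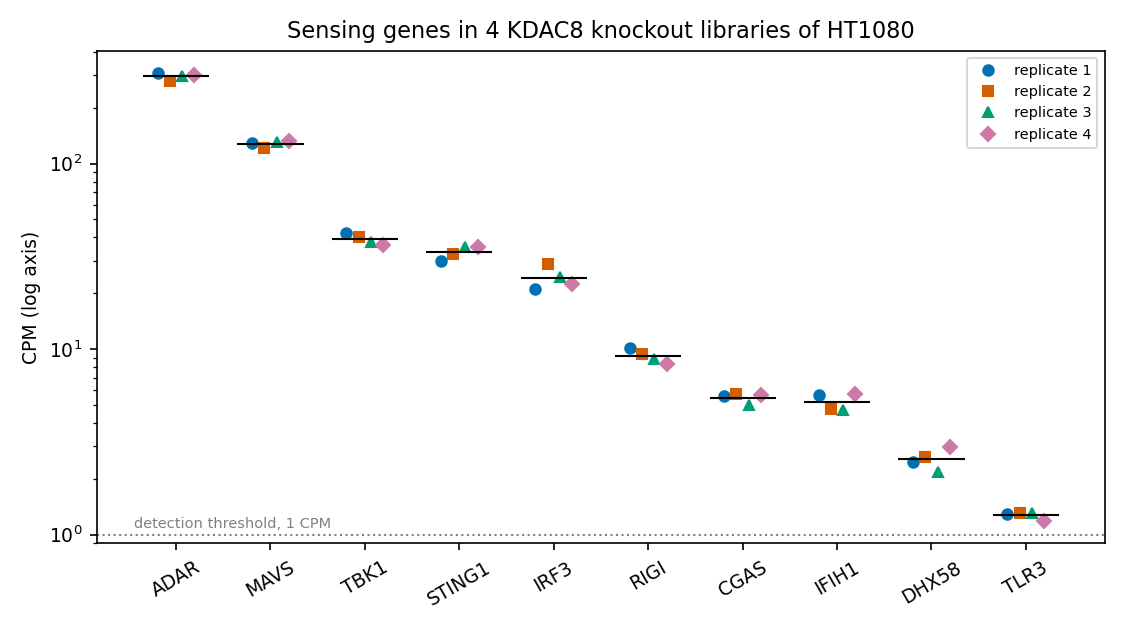
CPM of each of the 10 genes (log axis) in replicates 1 to 4 (symbols), with the mean over the 4 libraries as a line and the detection threshold of 1 CPM as a dotted line. ADAR lies highest at 295 CPM and TLR3 lowest at 1.27 CPM, and the libraries of 1 gene lie close together relative to the gaps between most genes.

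RIGI was the highest of the RNA helicases. RIGI (ENSG00000107201, chromosome 9, 32455705 to 32526324, reverse strand, GRCh38) had 408, 394, 401 and 352 counts in replicates 1 to 4, or 10.1, 9.36, 8.85 and 8.33 CPM. Its mean was 9.16 ± 0.752 CPM, and 18.9% of detected protein-coding genes had a lower mean CPM. IFIH1 (ENSG00000115267, chromosome 2, 162267079 to 162318703, reverse strand) had 228, 201, 213 and 241 counts, or 5.64, 4.77, 4.70 and 5.70 CPM. Replicates 1 and 4 lay above replicates 2 and 3 for this gene. DHX58 (ENSG00000108771, chromosome 17, 42101404 to 42112733, reverse strand) had 100, 110, 99 and 126 counts, or 2.47, 2.61, 2.19 and 2.98 CPM. Its highest library, replicate 4, was 1.36 times its lowest, replicate 3.

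Set side by side per kilobase of exon, the helicases kept 1 order in each library. RIGI exceeded IFIH1 in 4 of 4 libraries, by a log2 ratio of 1.05 ± 0.19 or 2.07-fold. IFIH1 exceeded DHX58 in 4 of 4 libraries, and the log2 ratio of DHX58 to IFIH1 was -0.61 ± 0.15. In an exact sign-flip permutation test (two-sided) both pairs gave p = 0.125, the smallest that 4 libraries allow, or 0.136 after Benjamini-Hochberg adjustment over the 12 pairs of genes compared. No pair can therefore reach 0.05. Some pairs were set by role, and the rest were neighbours in the order of these same levels per kilobase, which fixed their direction beforehand.

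The remaining sensors were TLR3 for endosomal RNA and CGAS for cytosolic DNA. TLR3 (ENSG00000164342, chromosome 4, 186069152 to 186088069, forward strand) was the lowest gene on each scale, with expected counts of 51.98, 54.93, 59.05 and 50.25, or 1.286, 1.306, 1.3025 and 1.183 CPM. The exact Poisson 95% interval, which covers counting error only, was 37.1 to 65.9 counts in replicate 4. Only 0.337% of detected protein-coding genes had a lower mean CPM, which places TLR3 at the detection threshold. Per kilobase it lay below IFIH1 in 4 of 4 libraries, with a log2 ratio of -2.43 ± 0.20. CGAS (ENSG00000164430, chromosome 6, 73413515 to 73452276, reverse strand) had expected counts of 225.19, 241, 226 and 237.95, or 5.57, 5.72, 4.99 and 5.63 CPM. Its exons share 180 bases with DDX43 on the other strand, a gene at 0.343 ± 0.084 CPM.

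The adaptors stood well above the sensors that feed them. MAVS (ENSG00000088888, chromosome 20, 3846799 to 3876123, forward strand) had 129, 121, 130.1 and 132 CPM in replicates 1 to 4, a mean of 128 ± 4.85 CPM, with replicate 2 the lowest. STING1 (ENSG00000184584, chromosome 5, 139475534 to 139482935, reverse strand) had 1204, 1367, 1609 and 1496 counts, or 29.8, 32.5, 35.5 and 35.4 CPM. Replicate 1 was its lowest library and replicates 3 and 4 were nearly equal. CGAS lay below STING1 per kilobase in 4 of 4 libraries, with a log2 ratio of -2.71 ± 0.18, a 6.55-fold gap that widened to 10.9-fold with the lengths of the principal transcripts.

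Which adaptor was higher depended on the gene length used. With all annotated exons joined, MAVS (11771 bases) exceeded STING1 (3850 bases) in 4 of 4 libraries, by a log2 ratio of 0.33 ± 0.11. With the length of the principal transcript, 11714 bases for MAVS and 1771 for STING1, the ratio turned to -0.78, and STING1 was higher in 4 of 4 libraries. The transcripts these cells make were not measured, so the order of the adaptors is not settled here.

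TBK1 and IRF3, the kinase and its substrate, had similar levels. TBK1 (ENSG00000183735, chromosome 12, 64451880 to 64502108, forward strand) had 1700, 1684, 1708 and 1530 counts, or 42.0, 40.0, 37.7 and 36.2 CPM. IRF3 (ENSG00000126456, chromosome 19, 49659569 to 49665875, reverse strand) had expected counts of 850.98, 1213.1, 1113.8 and 942.9, or 21.0, 28.8, 24.6 and 22.3 CPM. Replicate 2 was its highest library and replicate 1 its lowest, a range of 1.37 times. Per kilobase of joined exons TBK1 exceeded IRF3 in 4 of 4 libraries, by a log2 ratio of 0.37 ± 0.22. With principal transcripts the mean ratio turned to -0.21, and TBK1 was higher in 1 of 4 libraries.

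ADAR, the RNA editor, was by far the highest of the genes. ADAR (ENSG00000160710, chromosome 1, 154582057 to 154628013, reverse strand) had 307, 278, 295 and 299 CPM, a mean of 295 ± 12.5 CPM, with replicate 2 the lowest. Per kilobase it exceeded MAVS, the next gene, by a log2 ratio of 1.48 ± 0.03 in 4 of 4 libraries, and 90.2% of detected protein-coding genes had a lower level per kilobase. A count per gene joins its constitutive and interferon-inducible isoforms, p110 and p150, so their shares are not given.

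In order per kilobase of joined exons the genes ran ADAR, MAVS, STING1, TBK1, IRF3, RIGI, CGAS, IFIH1, DHX58 and TLR3. Neighbours did not overlap over the libraries except STING1 and TBK1, whose log2 ratio was 0.08 ± 0.21 with STING1 higher in 3 of 4 libraries (exact sign-flip permutation p = 0.375, also after adjustment). With joined exons the widest step was that from DHX58 to TLR3, a log2 ratio of 1.81 ± 0.24. The step from IRF3 to RIGI, the highest sensor, was next at 1.59 ± 0.24, or 3.02-fold, and the ratio of these 2 genes was 6.57-fold with principal transcript lengths. Principal transcript lengths kept ADAR first and the 5 sensors last in the same order, and placed STING1, IRF3, TBK1 and MAVS between them in that order. The widest step was then that from MAVS to RIGI, at 10.9 and 2.10 CPM per kilobase.

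**Figure D2:**
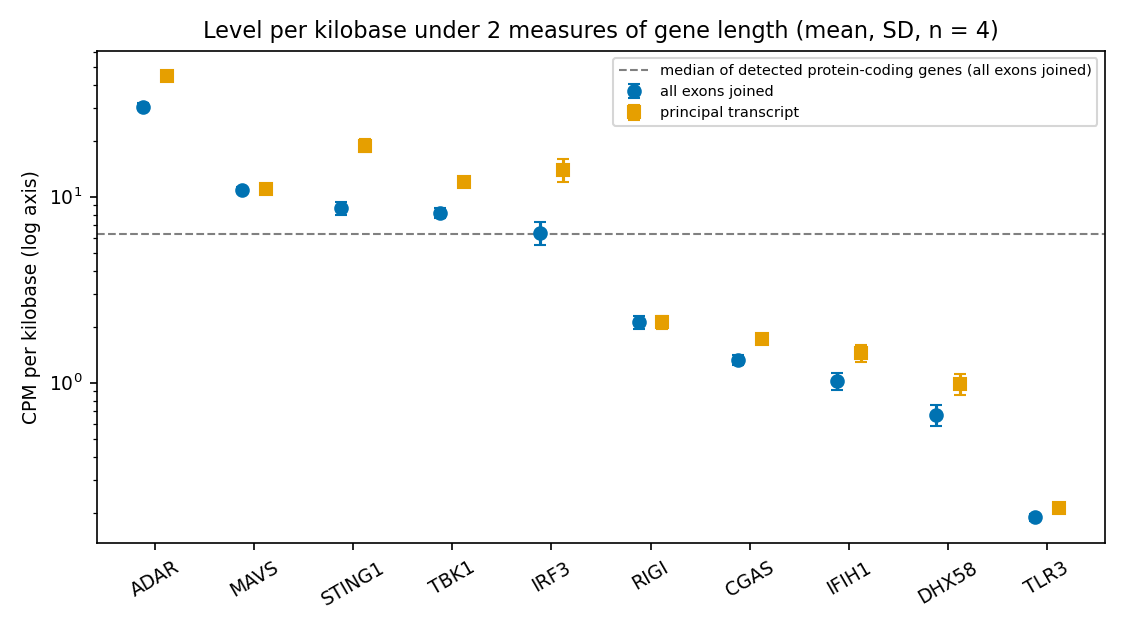
Mean CPM per kilobase (log axis, SD over 4 libraries) of each gene with all annotated exons joined (circles) and with the principal transcript (squares). The dashed line is the median of detected protein-coding genes with all exons joined, so it is on the scale of the circles only. The 5 sensors lie at or below 2.10 and the other genes at or above 6.38 CPM per kilobase with joined exons, and only the genes between ADAR and RIGI change places with the length used.

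Of the 10 genes, 5 varied between libraries beyond counting noise, against 59.2% of the 16790 genes tested. The test was a chi-square test of homogeneity, at an adjusted p under 0.05. Among detected protein-coding genes 8010 of 11566 varied, so the share of the members was not above either background. The 5 genes were ADAR (Benjamini-Hochberg adjusted p = 2.61e-13), IRF3 (4.53e-12), STING1 (1.27e-05), MAVS (0.000108) and TBK1 (0.000279). The 5 sensors did not pass, with adjusted p of 0.0831 for RIGI, 0.101 for IFIH1, 0.186 for DHX58, 0.508 for CGAS and 0.958 for TLR3. The sensors had 216 to 1555 counts over the 4 libraries and the other genes 4121 to 50097, so smaller differences pass the test in the latter. MAVS passed with a coefficient of variation of 3.79%, while DHX58 did not with 12.9%. Counting alone gives 1.36% for MAVS and 9.59% for DHX58. For TLR3 the coefficient of variation was 4.60% where counting alone gives 13.6%.

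The call for MAVS rested on 1 library. Without replicate 2 its adjusted p was 0.912, and RIGI, which missed the threshold with all libraries, passed at 0.028. RIGI also passed without replicate 3, at 0.0269. IFIH1 passed at 0.0169 when libraries were scaled by total count alone. The calls for ADAR, IRF3, STING1 and TBK1 held without each library in turn, with STING1 nearest the threshold at 0.0498 without replicate 1.

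The varying genes did not move together. IRF3 was 0.26 log2 units above its own mean in replicate 2, where ADAR and MAVS were 0.09 and 0.08 below theirs. STING1 was lowest in replicate 1, where TBK1 and ADAR were highest. The libraries also differed by transcript length. Among detected protein-coding genes, those with principal transcripts of at most 2083 bases had median deviations of -0.07, 0.12, 0.03 and -0.09 log2 units in replicates 1 to 4. Those of at least 5087 bases had 0.04, -0.05, -0.01 and 0.03. The principal transcripts of IRF3 and STING1 (1741 and 1771 bases) fall in the short class and those of ADAR and MAVS (6667 and 11714 bases) in the long one. STING1 did not follow its class in every library, with deviations of -0.16, -0.03, 0.10 and 0.09 in replicates 1 to 4. Across 11558 detected protein-coding genes Spearman's rho between length and deviation was 0.332, -0.509, -0.210 and 0.421 in replicates 1 to 4. That between GC content and deviation was -0.693, 0.282, 0.537 and -0.043. The GC content of the principal transcripts was 61.5% for IRF3, 56.8% for STING1, 52.1% for MAVS, 50.1% for ADAR and 39.3% for TBK1. The medians and rho values are descriptions of the same libraries. The part of length and GC content in the members' variation was not tested.

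**Figure D3:**
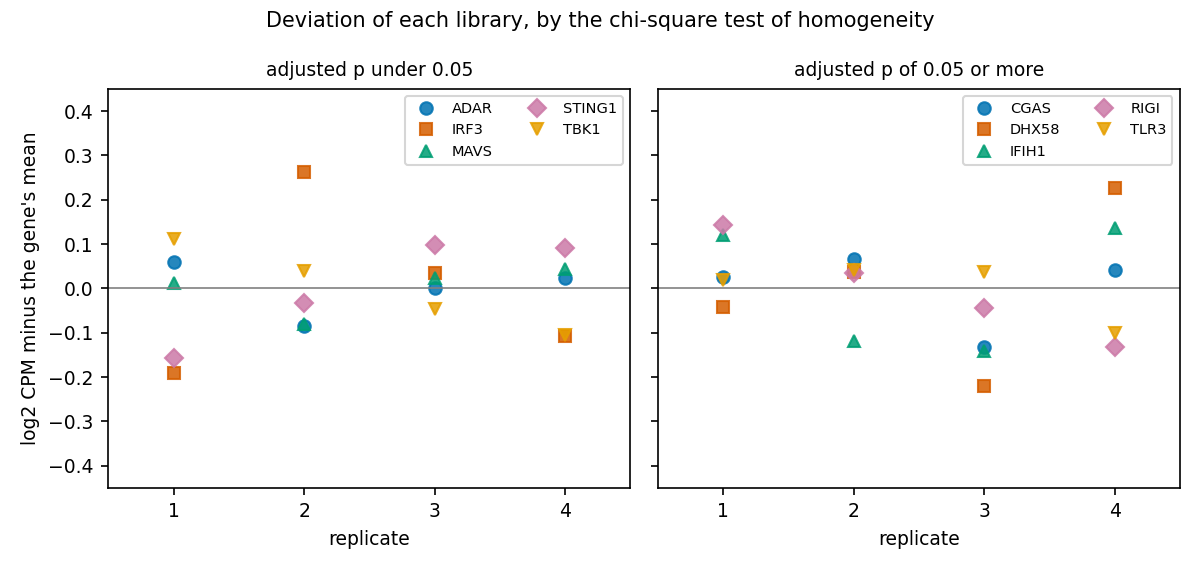
Deviation of log2 CPM from each gene's own mean, by replicate, for the 5 genes that passed the chi-square test (left) and the 5 sensors that did not (right). IRF3 stands out at 0.26 in replicate 2 and -0.19 in replicate 1, and DHX58 spreads as widely (-0.22 to 0.23) without passing.

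IRF3 was the varying member with the largest SD of log2 CPM (0.20), and 89.5% of detected protein-coding genes had a smaller one. Its reads cannot be fully told from those of BCL2L12, a BCL2 family gene whose exons share 734 bases with it on the other strand, since the strand setting is not given in the sources used here. BCL2L12 had 15.9, 20.5, 17.7 and 15.4 CPM in replicates 1 to 4, and was also highest in replicate 2. TBK1 too has an antisense row over 702 of its exonic bases, AC135279.3, but that row stood at only 0.35 ± 0.103 CPM. Of 9212 other protein-coding genes at 10 CPM or more, those nearest to IRF3 in profile were PFDN6, a prefoldin subunit gene, SEPW1, which encodes a selenoprotein, and NINJ1, a membrane rupture gene. Their Euclidean distances over the 4 libraries, on centred log2 CPM, were 0.0054, 0.010 and 0.017. In all, 277 of the 9212 genes lay within 0.1.

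The other genes of the pathway were taken in 6 lists of 91 genes, of which 67 were detected, against 58.7% of protein-coding rows. The list of RNA sensing partners had a median of 41.8 CPM and 16 of 17 genes detected, against the same 58.7%. The ubiquitin ligase gene TRIM25, which acts on RIG-I, was highest at 178 ± 5.90 CPM, followed by TOMM70, the mitochondrial receptor that MAVS contacts, at 160.4 ± 7.86 CPM. EIF2AK2, the kinase PKR, had 110.3 ± 5.84 CPM. PNPT1 and SKIC2, whose products degrade RNA that could trigger the sensors, had 83.1 ± 3.23 and 66.2 ± 3.94 CPM. Of the oligoadenylate synthetases only OAS2 was not detected, at 0.336 ± 0.0617 CPM, and OAS1 had 2.004 ± 0.303 CPM. In this list 10 of 17 tested genes varied, near the background of 59.2%.

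Among genes of DNA sensing and clearance, 12 of 14 were detected, against 58.7% of protein-coding rows, and the median was 27.8 CPM. IFI16, a nuclear DNA binder of the interferon-inducible p200 family, was highest at 172 ± 7.18 CPM. BANF1, a chromatin protein that keeps CGAS off nuclear DNA, followed at 135.5 ± 20.4 CPM. ENPP1, which breaks down cGAMP outside the cell, had 41.7 ± 4.199 CPM, and the exonuclease gene TREX1 8.32 ± 0.363 CPM. ZBP1, a sensor of Z-form nucleic acid, had 1 count in all, in replicate 3, and was the lowest. The inflammasome sensor AIM2 had 1.16, 1.12, 0.883 and 1.09 CPM and missed detection through replicate 3 alone. Here 9 of 13 tested genes varied, against 59.2% of all genes tested. BANF1, PQBP1, RNASEH2A and RNASEH2C were each highest in replicate 2 and varied by 1.295 to 1.431 times. The other varying genes of the list were highest in replicate 1, as IFI16 and ENPP1 were, or in replicate 3.

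In the list of endosomal sensing, which leaves out the member TLR3, 3 of 7 genes were detected, against 58.7% of protein-coding rows. They were TICAM1, the adaptor of TLR3, at 27.7 ± 1.71 CPM, the chaperone gene UNC93B1 at 18.6 ± 0.925 CPM and the kinase gene IRAK4 at 12.9 ± 1.05 CPM. TLR7, TLR8, TLR9 and MYD88 were not detected. MYD88, the adaptor of TLR7, TLR8 and TLR9, stood at 0.247, 0.142, 0.0662 and 0.142 CPM. TLR7 had 29 counts over the 4 libraries and TLR8 had 2. TLR9 had 0, for which the limit over all libraries is 0.0176 CPM (3 counts). Of the 3 genes tested, 2 varied, too few to set against the background of 59.2%.

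Downstream of the adaptors all 17 kinase, adaptor and factor genes were detected, against 58.7% of protein-coding rows, with a median of 26.3 CPM. NFKB1 (87.1 ± 3.90) and RELA (86.1 ± 5.87 CPM), subunits of NF-kappa B, were highest. IKBKE, the kinase closest to TBK1, had 16.9 ± 1.17 CPM. Per kilobase TBK1 stood at 8.19 and IKBKE at 4.47 CPM. TANK and AZI2, scaffolds of TBK1, had 34.6 ± 2.56 and 46.4 ± 4.17 CPM. IRF7, the interferon-inducible partner of IRF3, was lowest at 1.38 ± 0.124 CPM, and IRF5 was close to it at 1.48 ± 0.321 CPM. Per kilobase of exon IRF3 stood at 6.38 and IRF7 at 0.524 CPM. Here 13 of 17 genes varied, against the same background of 59.2%.

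Transcripts of the interferon genes in the next list were at or near 0, while those of most of the receptor pathway were present. IFNA1 was the only alpha interferon gene listed, so the other alpha genes are not described. IFNB1, the classical target of IRF3, and IFNL1, IFNL2 and IFNL3 had 0 counts in every library, under the same limit of 0.0176 CPM. IFNA1 had 3 counts in all and IFNK 11. IFNE had 98 counts, a level of 0.577 ± 0.0691 CPM. Some interferon genes, such as the alpha genes, are near copies of each other, so the counts of such genes are uncertain. Of the receptor and signalling genes, JAK1 was highest at 156 ± 5.50 CPM. IFNAR1 had 48.5 ± 2.39 CPM and IFNAR2 9.89 ± 0.300 CPM. IFNLR1 was not detected, with 0.866, 1.16, 0.795 and 2.11 CPM, and its high library was replicate 4. In all, 8 of 16 genes of this list were detected, against 58.7% of protein-coding rows, and 6 of 10 tested varied, against 59.2% of all genes tested.

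Interferon-stimulated genes were mostly low in level. The list had a median of 2.12 CPM. Of its 20 genes 11 were detected, near the share of 58.7% among protein-coding rows. IFITM3, a membrane protein that blocks viral entry, was highest at 92.2 ± 3.52 CPM, and IFIT5 followed at 35.7 ± 1.76 CPM. ISG15, the ubiquitin-like modifier, had 3.45 ± 0.243 CPM, and MX1, a GTPase against RNA viruses, 2.49 ± 0.382 CPM. IFI44L was the lowest, with 2 counts in all. The others not detected were MX2, IFI6, IFI27, RSAD2, HERC5, XAF1, BST2 and USP18. IFI6 was at 1.003 ± 0.160 CPM and the other 7 at 0.51 CPM or below. Of 16 tested genes 7 varied, where the background was 59.2%.

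**Figure D4:**
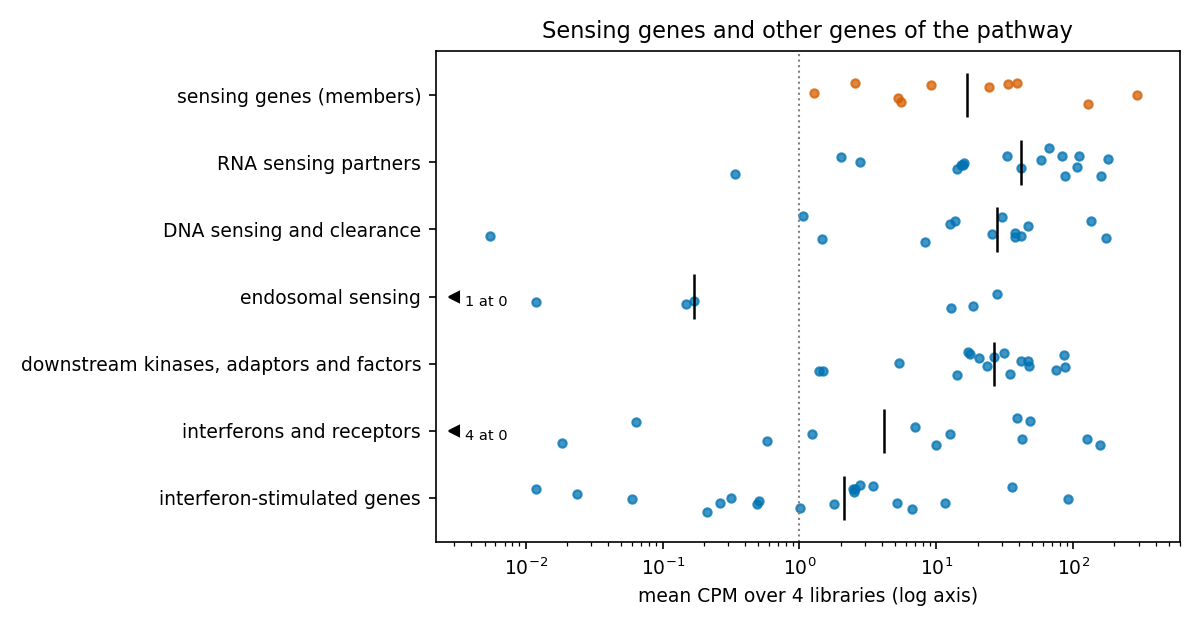
Mean CPM over 4 libraries (log axis) of the 10 sensing genes and of the genes in the 6 pathway lists, with each list's median as a line, the detection threshold of 1 CPM dotted, and genes with 0 counts as a triangle at the left edge. The interferon-stimulated genes have a median of 2.12 CPM against 26.3 CPM for the downstream kinases, adaptors and factors, and TLR9, IFNB1, IFNL1, IFNL2 and IFNL3 lie at 0.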

How the data were processed

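Total RNA of 4 HT1080 libraries was sequenced after removal of ribosomal RNA, per the labels' protocols. The authors deposited expected counts per Ensembl gene, unscaled, a unit read from the values, of which 10.6% to 11.9% per library are not whole. The submitters' processing notes name GRCh38 and, with no role stated, DESeq2 1.46.0, RSEM 1.3.3, Bowtie2 2.5.4 and Trimmomatic 0.39. The annotation release and strand setting were not found in the labels or headers. Columns of per-sample values left unused numbered 0.

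Counts were rounded to whole numbers and scaled with TMM (edgeR 4.0.16). The labels give 1 group, so no contrast was fitted. Variation was tested, at mean counts of 10 or above, by a chi-square test with 3 degrees of freedom, adjusted by Benjamini-Hochberg over all such genes, a procedure tested on simulated data. Logs used a pseudocount of 0.01 CPM, and ratios of genes used none. Positions and lengths came from GENCODE release 29 (GRCh38), which may differ from the release behind the table. The principal transcript is the longest with an APPRIS principal tag. Named genes are the 10 members, the highest, the lowest and the undetected of each list, and others of a list by role, and the 3 genes nearest in profile to the most variable member. 1 list gene is not reported by name here. The members and lists were chosen with earlier results of these data known. Alternatives were DESeq2 1.42.0 size factors, total-count scaling, other thresholds, principal transcript lengths and leaving out each library.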

Additional observations from a re-analysis of the deposited data

Results flagged for a closer look

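Among 99 sets of 4 library values checked, 3 had 1 library set apart by more than Dixon's 95% critical value allows. Chance gives about 1 in 20, so such sets were no more frequent than by chance. TLR3 was low in replicate 4, at 1.18 CPM against 1.29 to 1.31 CPM in the others. HERC5, an interferon-induced ligase gene, was low in replicate 3, at 0.464 CPM against 0.495 to 0.499 CPM. Its counts were 20, 21, 21 and 21 in replicates 1 to 4, so replicate 3 was not low in counts. In the chi-square test of homogeneity the adjusted p was 0.958 for TLR3 and 0.995 for HERC5. The log2 ratio of MAVS to STING1 per kilobase was high in replicate 1, at 0.50 against 0.26 to 0.29, and replicate 1 is the library in which STING1 was lowest.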

How the results depend on the processing

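No paired analysis was possible because the labels give 1 group. Gene length was the choice that moved values most. With principal transcripts the log2 ratio of MAVS to STING1 turned from 0.33 to -0.78 and that of TBK1 to IRF3 from 0.37 to -0.21. The other 10 pairs kept their direction, with that of CGAS to STING1 moving to -3.45 and that of IRF3 to RIGI to 2.72, and all 12 did without each library in turn. Pairs of neighbours were chosen by the order in these libraries, so their kept direction is no separate support. With principal transcripts, levels per kilobase became 44.2 for ADAR, 18.8 for STING1, 13.9 for IRF3, 11.97 for TBK1, 1.72 for CGAS, 1.45 for IFIH1, 0.979 for DHX58 and 0.211 CPM for TLR3, and those of MAVS and RIGI moved by less than their SD. These shifts follow from the lengths themselves. Levels in CPM moved by less than their SD with DESeq2 size factors or total counts. All 10 genes were detected under each alternative tried. The number that varied was 5 or 6 under each alternative tried, and over all genes it was 7786 to 9376 without 1 library (46.8% to 55.9% of those tested), 9976 with DESeq2 size factors (59.4%), 10110 with total counts (60.2%) and 10725 of 24517 (43.7%) when the minimum mean count was 1. Of the pathway genes, 70 were detected at 0.5 CPM, and 67 or 68 without 1 library. Among the sensors depth limits TLR3 most: a single library held 50 to 59 counts for TLR3, against 352 to 408 for RIGI.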

Other observations

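The interferon genes IFNB1, IFNE and IFNA1 lie in 1 cluster on the short arm of chromosome 9 (GRCh38), with starts at 21077105, 21480839 and 21440454. Genes on either side of it, chosen after their values were seen, differed in level. FOCAD, at 20658309 to 20995955, had 62.3 ± 2.43 CPM. On the other side MTAP, from 21802543, had 0.484 ± 0.141 CPM, and CDKN2A and CDKN2B, from 21967753 and 22002903, had 0 counts in all 4 libraries. Whether the cells carry a copy of these genes was not tested.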
